A study of Drosophila melanogaster with 3 samples.

Results

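The transcription machinery genes examined here were the 80 protein-coding genes of Drosophila melanogaster whose symbols begin with Polr or TfII, or with MED or Taf followed by a digit, of 13945 protein-coding genes on the 6 chromosome arms. They comprised 31 genes of the RNA polymerases, 9 TfII genes, 25 Mediator genes and 15 Taf genes. The data are chromatin immunoprecipitation profiles of Dad, the inhibitory Smad that restrains signalling by the BMP ligand Dpp. Whole Dad-GFP embryos of 0 to 24 h, male and female together, came from a stable transgenic line in which GFP is joined to the C terminus of Dad, and the precipitation used an antibody to GFP. The 3 biological replicates form 1 group, and all of them carry the tagged protein. No untagged line or other group was analysed here, so the results are positions and levels within this group, and in whole embryos the contributing cell types cannot be told apart.

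These genes encode the machines that read all other genes. RNA polymerase I makes most ribosomal RNA, polymerase II makes messenger RNA, and polymerase III makes transfer RNA and a short ribosomal RNA. At a polymerase II promoter, TFIID, which is built of the TATA-binding protein and its associated factors (the Taf proteins), recognises the DNA. General factors named TfII then place the polymerase, and the Mediator complex carries signals from distant activators to it. TfIIS, also counted with the TfII genes here, instead restarts arrested polymerase.

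The lists hold 30000 regions per replicate and as many from the pooled replicates. From these the authors kept 3392 reproducible peaks by the irreproducible discovery rate (IDR), called the optimal list. A gene was counted as having a promoter peak when the summit of an optimal peak lay within 500 bp of an annotated transcription start. The optimal signal ranged from 80.7 to 1827 with a median of 121.7, in the peak caller's own units, and signal was not scaled between lists. For each replicate, the strongest region within 500 bp of a start was therefore divided by that replicate's median over the optimal peaks (42.6, 35.6 and 51.1 in replicates 1, 2 and 3), which gives the relative signal. The top regions of a replicate are its 3392 regions of highest signal. Read depth is unknown, since the lists hold no read counts.

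Dad-GFP peaks lay at the promoters of 25 of the 80 transcription machinery genes (31.2%, Wilson 95% interval 22.2 to 42.1%), against 2562 of 13945 protein-coding genes (18.4%). The intervals cover counting error only, and no test over genes was made, since genes are not replicates and genes with a common promoter share a peak. The RNA polymerase genes had peaks at 11 of 31 promoters (35.5%, interval 21.1 to 53.1%). Mediator genes had them at 8 of 25 (32%, 17.2 to 51.6%), and TfII genes at 3 of 9 (33.3%, 12.1 to 64.6%). With 3 of 15 (20%, 7.05 to 45.2%), the Taf genes were near the share over all coding genes. When each peak was counted only for the gene with the nearest start, 15 of the 80 genes (18.8%) had one, against 13.4% of coding genes, and TfII fell to 1 of 9. Without replicate 3 the count was 16 (20%, against 12.8%).

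The replicates gave the spread of these shares. A top region lay within 500 bp of a start at 20, 23 and 23 of the 80 genes in replicates 1, 2 and 3, which is 25, 28.8 and 28.8%. Over all coding genes the shares were 18.3, 17.4 and 17.8%. The transcription machinery genes were thus higher in 3 of 3 replicates, by 9.64 ± 2.58 percentage points (SD, n = 3).

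By complex, the RNA polymerase genes reached 22.6, 35.5 and 32.3% in the 3 replicates, and exceeded all coding genes by 12.2 ± 7.15 points (SD, n = 3). Replicate 1 stood lowest there, with a difference of only 4.25 points. Mediator genes reached 28, 28 and 32% and exceeded all coding genes by 11.5 ± 2.40 points. The TfII genes had top regions at 3 of 9 in each replicate. Taf genes reached 20, 13.3 and 13.3%, a difference of -2.31 ± 3.45 points, and were above all coding genes in 1 of 3 replicates.

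**Figure D1:**
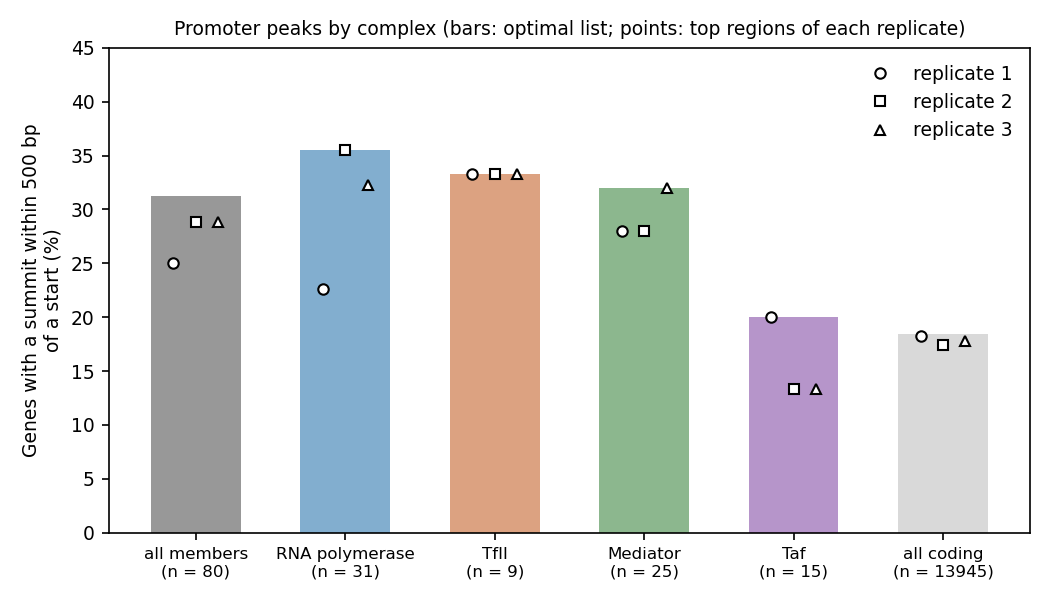
Share of genes (%) whose start has a summit at 500 bp or less, by complex and for all protein-coding genes; bars are the optimal list and points are the top regions of the 3 replicates. The RNA polymerase, TfII and Mediator points all lie above the coding-gene points of 17.4 to 18.3%, and the Taf points lie on both sides of them.

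Agreement of all 3 replicates was required next. An optimal promoter peak together with a top region in every replicate was found at 15 of the 80 genes (18.8%), against 10.9% of coding genes. The 15 were 6 RNA polymerase, 3 TfII, 5 Mediator and 1 Taf gene. A further 7 of the 25 peaks had a top region in 2 replicates (Polr3F, Polr1D, MED7, MED19, MED16, Taf2 and Taf7), and 3 had one in 1 replicate (Polr1F, Polr2C and Polr2E).

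Most of the genes had some region at the promoter once weak regions were admitted. Of the 30000 pooled regions, 1 or more lay within 500 bp of a start at 67 of the 80 genes (83.8%), against 55.8% of coding genes. The Taf genes were included here at 14 of 15 (93.3%), beside 24 of 31 RNA polymerase genes, 8 of 9 TfII genes and 21 of 25 Mediator genes. The signal itself was ordinary: among genes with a pooled region, the median was 56.5 in the transcription machinery and 56.3 over all coding genes.

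The promoters that stood above the replicate median in every replicate were 6, those of MED30, Polr2H, Polr2F, MED27, Polr2J and Taf4. Their DNA at the summit is printed here because these are the strongest places Dad-GFP was found in the set. The sequences are from RefSeq's copy of release 6 of the fly genome (dm6), on the strand of the named gene, and run up to 60 bases to each side of the summit, fewer where annotated UTR begins. Capitals mark the word CGATA, the word CAGCCCT and, as a further word, TTGCCA, each on either strand. MED30 is at chr3L:654238-654358, minus strand, and Polr2H at chr3L:21728792-21728879, plus strand. Polr2F is at chr3R:5371679-5371799, plus strand, and MED27 at chr3R:5654891-5655011, plus strand. Polr2J is at chr2L:17410536-17410655, minus strand, and Taf4 at chr3L:16113652-16113772, plus strand.
MED30: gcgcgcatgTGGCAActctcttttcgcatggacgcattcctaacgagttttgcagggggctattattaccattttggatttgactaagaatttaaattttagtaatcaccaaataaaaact
Polr2H: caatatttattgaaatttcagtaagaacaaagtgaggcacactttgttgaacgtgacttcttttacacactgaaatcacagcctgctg
Polr2F: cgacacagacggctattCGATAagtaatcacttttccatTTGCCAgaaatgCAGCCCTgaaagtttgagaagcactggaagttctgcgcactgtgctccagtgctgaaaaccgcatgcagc
MED27: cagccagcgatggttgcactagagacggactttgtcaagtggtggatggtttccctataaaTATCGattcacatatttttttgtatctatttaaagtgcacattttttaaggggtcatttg
Polr2J: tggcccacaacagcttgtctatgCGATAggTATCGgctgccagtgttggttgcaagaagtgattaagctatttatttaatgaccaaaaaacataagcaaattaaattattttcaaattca
Taf4: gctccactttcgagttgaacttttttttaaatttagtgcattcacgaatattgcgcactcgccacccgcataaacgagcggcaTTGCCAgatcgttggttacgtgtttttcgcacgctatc

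Among the polymerase genes, those for subunits used by all 3 nuclear polymerases had peaks at 3 of 5 promoters (Polr2H, Polr2F and Polr2E, not Polr2K or Polr2L). Polr2H, FBgn0037121, encodes the RPB8 subunit. Its peak (chr3L:21728720-21728945, signal 326.1) had relative signals of 3.19, 1.99 and 2.33 in replicates 1, 2 and 3 (mean 2.50 ± 0.619, SD, n = 3). Polr2F, FBgn0003275, which encodes RPB6, had a peak of signal 310.9 at chr3R:5371625-5371829, with relative signals of 2.81, 2.57 and 2.04 (2.48 ± 0.391). The means of these genes differed by less than either SD, and all 6 values were 1.99 or higher. Polr2E, for RPB5, had a weak peak (signal 86.7) with relative signals of 0.556, 0.881 and 0.60.

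Genes particular to polymerase II had peaks at 3 of 8 (37.5%, interval 13.7 to 69.4%), against 18.4% of all coding genes. Polr2J encodes RPB11, which pairs with the product of Polr2C (RPB3) to start assembly of the enzyme. Polr2J (FBgn0032634, chr2L:17410541-17410665, signal 242.7) had relative signals of 1.66, 1.40 and 2.43, a mean of 1.83 ± 0.537 (SD, n = 3). Polr2B, the second-largest subunit, had a peak of signal 125.8 and relative signals of 0.714, 0.864 and 1.41. Polr2C had a peak of signal 87.5 inside its coding sequence, 478 bp past the start, the member peak farthest into a gene. In replicates 1 and 3 the strongest region near Polr2C lay upstream and did not overlap that peak. No optimal peak lay at Polr2A, which encodes the largest subunit with the heptad-repeat tail, and its pooled region had a signal of 43.0.

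The genes particular to polymerases I and III had peaks at 1 of 5 and 2 of 10, which is 20% of each and near the 18.4% over all coding genes. Their intervals (3.62 to 62.4% and 5.67 to 51.0%) overlapped those of the shared and polymerase II genes, so no order among these groups was resolved. Polr3F (signal 85.2) and the polymerase I stalk gene Polr1F (81.8) were close to the lowest optimal signal. Polr3F had relative signals of 0.354, 0.745 and 0.793, and Polr1F had 0.664, 0.297 and 0.828, each with 1 low replicate. Of the pair of subunits that polymerases I and III share, Polr1D had a peak (signal 106.6; relative signals 1.02, 0.651 and 0.874), while Polr1C had no region in any list. PolrMT, the single-subunit polymerase of mitochondria, had a peak of signal 138.8 at chr2L:1108227-1108636 with relative signals of 1.25, 0.928 and 0.935.

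The 3 TfII genes with a peak were TfIIA-S, TfIIA-L and TfIIB. TfIIA-S and TfIIA-L encode the subunits of TFIIA, which steadies the TATA-binding protein on DNA, and TfIIB bridges it to polymerase II. TfIIA-S (signal 149.2, chr3R:23890916-23891325) had relative signals of 1.62, 0.804 and 0.937. TfIIA-L (signal 124.5) had 0.720, 0.936 and 1.23, at the inner of its 2 annotated starts. TfIIB (signal 109.1) had 0.785, 0.824 and 1.00. The replicates of the 3 genes overlapped, so no order among them was resolved. TfIIEalpha, TfIIEbeta, TfIIFalpha, TfIIFbeta and TfIIS had no optimal peak but a pooled region each, of signal 41.1 to 63.6. TfIIS, whose product restarts arrested polymerase, had the highest. TfIIA-S-2, a relative of TfIIA-S, had no region in any list.

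Mediator held the strongest single peak of the set. MED30 and MED27 encode subunits outside the classical head, middle and tail assignment used here. MED30 (FBgn0035149, chr3L:654165-654407, signal 352.1, rank 183 of 3392) had relative signals of 2.80, 2.88 and 2.50, a mean of 2.73 ± 0.198 (SD, n = 3). MED27 (FBgn0037359, chr3R:5654746-5655155, signal 289.3) had 2.19, 1.24 and 3.21, a mean of 2.21 ± 0.981, and its replicates spanned the values of MED30. The head gene MED6 followed with a signal of 156.8 and relative signals of 1.12, 0.905 and 1.52.

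In the middle module, whose subunits contact the polymerase tail, MED7 (149.7), MED4 (139.7) and MED19 (81.6) had peaks. MED7 had relative signals of 1.26, 0.570 and 1.52, with replicate 2 low. MED4 had 1.24, 0.909 and 1.14. MED19 was uneven, at 0.442, 1.16 and 0.732. The tail genes, whose subunits meet activators, had peaks at MED16 (118.4) and MED25 (101.3). MED16 had relative signals of 1.07, 0.534 and 1.19, and MED25 had 1.06, 0.981 and 0.747, with overlapping replicates. By module, peaks were at 1 of 7 head, 3 of 8 middle, 2 of 5 tail and 2 of 5 other genes, numbers too small to rank the modules. The median signal of the 8 Mediator peaks was 144.7, beside 125.8 for the 11 RNA polymerase peaks.

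Among the Taf genes only Taf4 had a top region in all 3 replicates. Taf4 (FBgn0010280, chr3L:16113507-16113916, signal 213.5) encodes a histone-fold scaffold of TFIID and had relative signals of 1.70, 1.56 and 1.61, a mean of 1.62 ± 0.0758 (SD, n = 3). Its peak lay in an intron 78 bp before 1 of the 3 annotated starts. Taf2, which contacts the initiator, had a peak of signal 97.9 and relative signals of 0.847, 0.292 and 0.989, and Taf7, a partner of Taf1, had 90.0 and 1.06, 0.80 and 0.436. These replicates ranged widely, and those of Taf4 lay close together. Taf1, the largest subunit, had no optimal peak and a pooled region of signal 57.8.

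**Figure D2:**
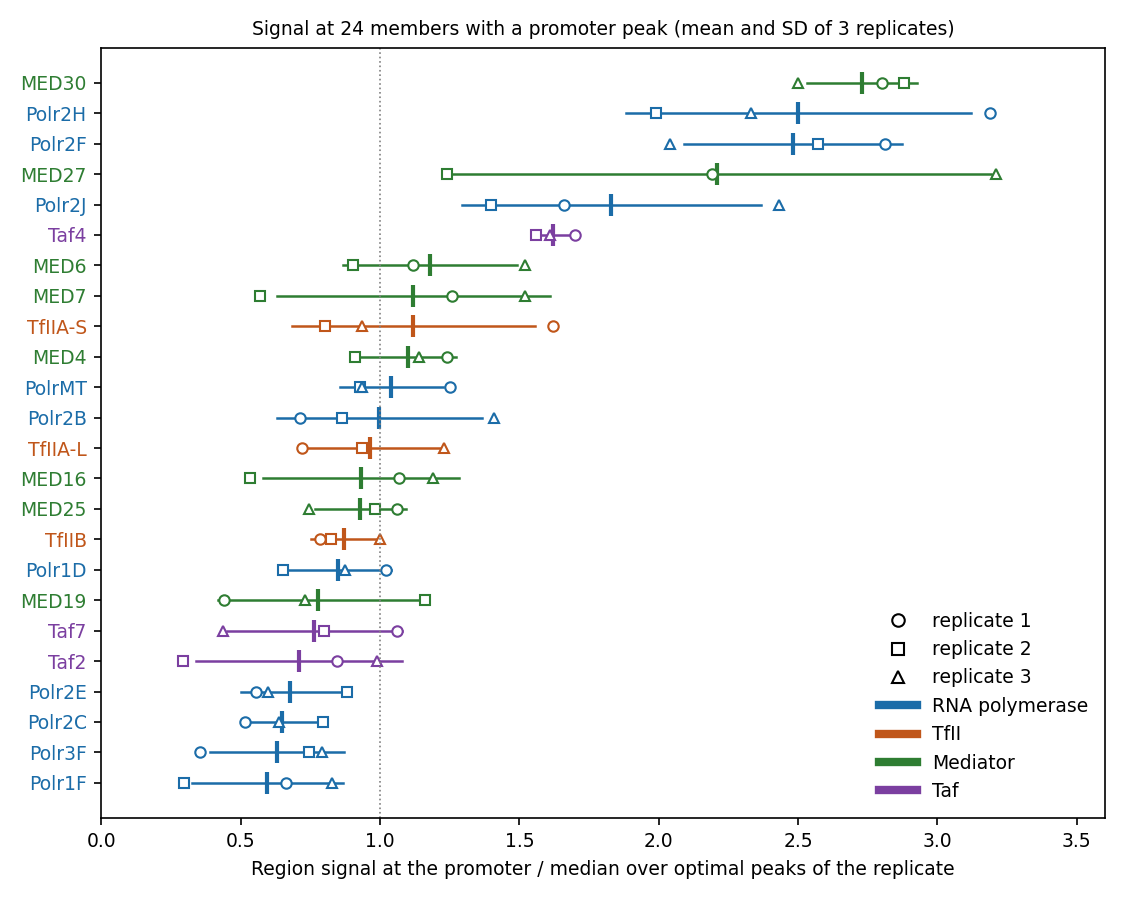
Relative signal of 24 of the 25 genes with a promoter peak, ordered by mean; open symbols are the replicates, the vertical mark is the mean and the horizontal line is the SD (n = 3). MED30, Polr2H, Polr2F, MED27, Polr2J and Taf4 have all replicates above 1, the replicate median over optimal peaks.

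Along the order of means, the replicates of neighbouring genes overlapped in 23 of the 24 pairs. The exception was Taf4 against MED6. Mean relative signal was above 1 at 11 of the 25 genes. The median relative signal of the 25 was 1.06, 0.905 and 1.00 in replicates 1, 2 and 3 (mean 0.989 ± 0.0794, SD, n = 3). For all coding genes with a promoter peak it was 1.04, 0.992 and 1.03 (1.02 ± 0.0263), a difference within the spread of the replicates. The median pooled signal of the 25 peaks was 125.8, against 128.5 for coding genes with a peak. Peaks were thus more frequent at these genes than over all coding genes, but of common strength. Replicate 2 gave the lowest relative signal at 14 of the 25 genes.

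The 55 genes without an optimal peak were not all empty. In 42 of the 55 a pooled region lay within 500 bp of a start. Of all 13945 coding genes, 2562 had a promoter peak, and 5221 of the others had a pooled region. The signal at the 42 was 22.7 to 72.2 with a median of 45.5, against a median of 41.9 over coding genes without a peak. By complex, the median was 46.1 in the RNA polymerase genes, 49.7 in TfII, 45.2 in Mediator and 34.3 in Taf. Only 5 of the 42 (11.9%) reached a signal of 60, against 20.6% over coding genes. They were the head gene MED17 (72.2), Polr3E (71.2), MED28 (69.5), Taf8 (68.7) and TfIIS (63.6). MED17 had relative signals of 0.654, 0.551 and 0.437 in replicates 1, 2 and 3, and MED28 had 0.602, 0.556 and 0.497. Polr3E was the only one of the 5 with a replicate above 0.80 (0.582, 0.355 and 0.859). The transcription machinery genes without a peak were therefore not gathered just under the lowest optimal signal of 80.7.

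Another 4 genes without an optimal peak had a top region in 1 replicate. Polr1A, the largest polymerase I subunit, had one in replicate 2 (signal 25.9), where replicate 1 held no region. Polr1E and MED23 also had one in replicate 2 (28.3 and 26.7), and Polr3E in replicate 3 (43.9). None of these recurred as a top region in another replicate.

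No pooled region lay at 13 genes: Polr2G, Polr3A, Polr3I, Polr3K, Polr1C, Polr2K, Polr2L, TfIIA-S-2, MED1, MED21, MED15, MED24 and Taf9. Of these, Polr3I, Polr3K, Polr1C and TfIIA-S-2 had no region in any replicate either. The lists hold only called regions, so absence here means no call, not a measured level of 0.

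The remaining genes without an optimal peak, not named above, were Polr1H, Polr1B, Polr2D, Polr2M, Polr2I, Polr3B, Polr3D, Polr3G, Polr3C, MED18, MED8, MED20, MED11, MED22, MED31, MED9, MED10, MED14, MED26, Taf13, Taf12, Taf11, Taf10, Taf10b, Taf5, Taf3, Taf12L and Taf6. Their pooled regions had signals of 22.7 at MED26 up to 56.5 at Polr1H. Taf10 and Taf10b, neighbouring copies of a histone-fold subunit, stand head to head with 45 bp between their starts and share 1 pooled region of signal 34.3.

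**Figure D3:**
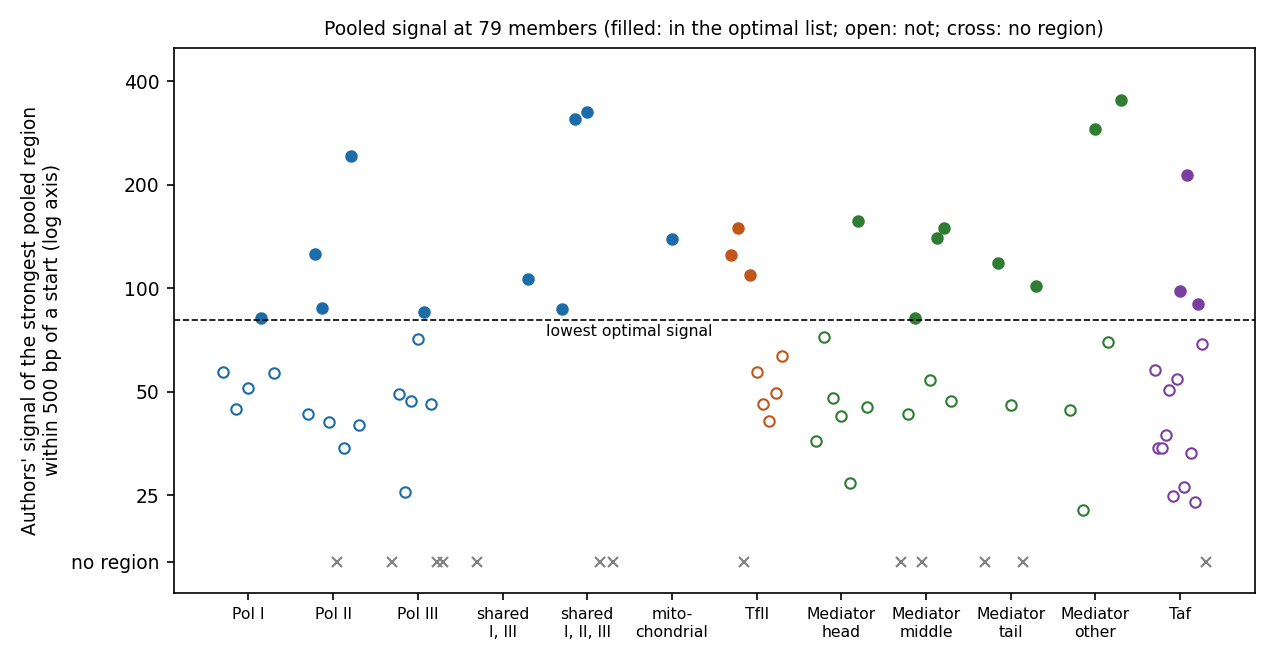
The authors' signal of the strongest pooled region within 500 bp of a start (log axis) for 79 of the 80 genes, by complex and module; filled points are in the optimal list, open points are not, and crosses at the bottom have no region. The dashed line is the lowest optimal signal, 80.7; MED30 (352.1) is the highest point, and most open points lie between 22.7 and 60.

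The distance limit decided few genes. Polr2C was just inside it, at 478 bp. MED15, a tail subunit, was just outside, with an optimal summit 533 bp upstream of its start. That peak had a signal of 322.4 and lay nearest to the start of CG4297, the head-to-head neighbour of MED15 at a gap of 813 bp. Polr3G, TfIIEalpha, Taf12, Taf10 and Taf10b had their nearest optimal summit at 1474 to 1887 bp, and 23 of the 55 had none within 10 kb. No gene of the 80 carried another optimal summit in its body beyond the promoter window.

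Summits lay mostly upstream of the start. The median distance was -74.0 bp over the 25 genes (range -332 to 478, negative upstream), against -97.0 bp over coding genes with a peak. In the 3 replicates the medians were -97.0, -82.0 and -102.0 bp, a mean of -93.7 ± 10.4 (SD, n = 3), against -95.0 ± 11.3 over coding genes. Of the 25 summits, 21 (84.0%) were upstream, against 85.8%. The position of the peaks thus did not differ from that at other coding promoters beyond the spread of the replicates. In 21 of the 25 peaks the region was 410 bp wide with the summit at its middle, so the summit is the centre of a window rather than a base-level position.

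By annotation, 15 summits were intergenic, 4 in introns, 3 in 5′ UTRs (MED6, MED19 and Taf7), 1 in a 3′ UTR (Polr2F), 1 in coding sequence (Polr2C) and 1 in another exon (MED4). These features could belong to any annotated gene, not only the one named. The Polr2F summit, at -56 bp, lay upstream of the Polr2F start and so outside that gene. Apart from those of Polr2E and TfIIA-S, the intergenic summits fell between the start of the gene and that of a head-to-head neighbour.

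**Figure D4:**
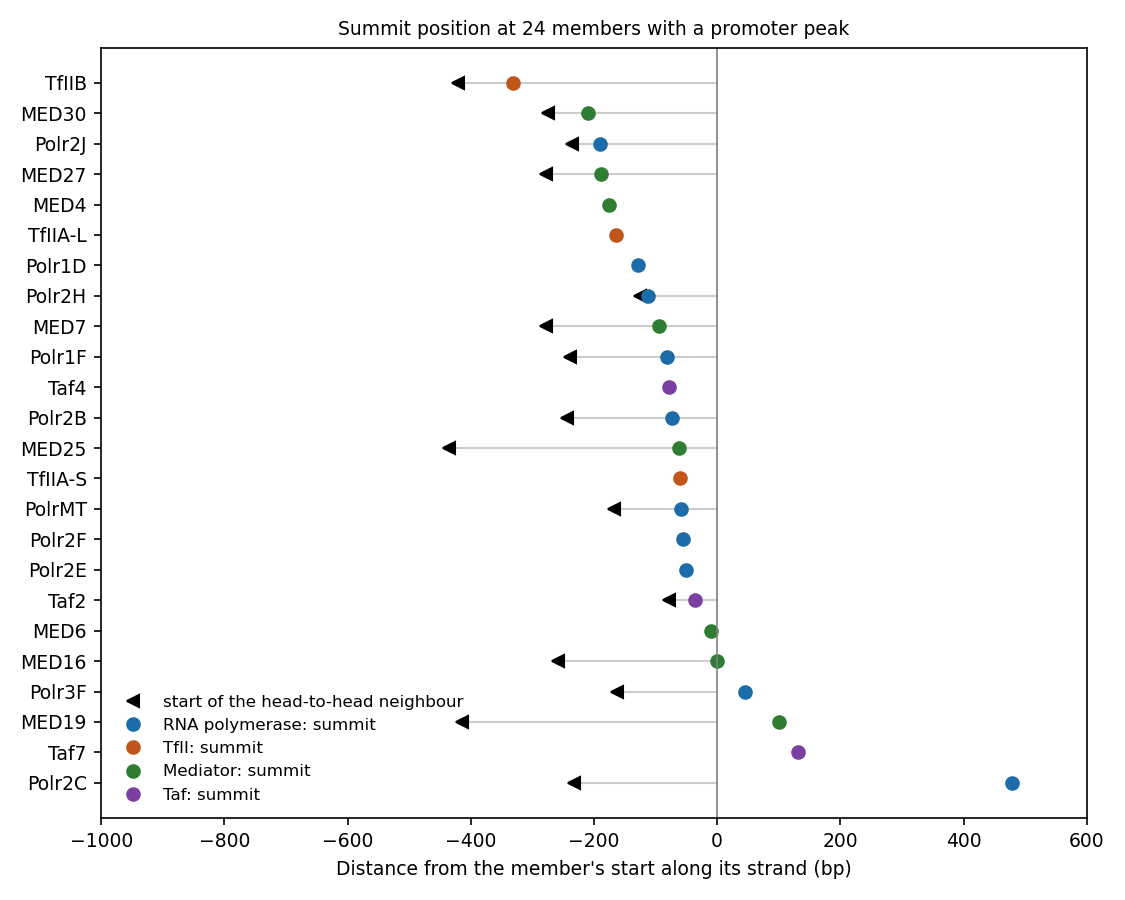
Distance (bp, along the gene's strand) from the start of each of 24 of the 25 genes to its optimal summit (coloured point) and, where there is one within 1000 bp, to the start of its head-to-head neighbour (black triangle). Most summits lie between 0 and -209 bp, TfIIB is the most upstream at -332 bp, and Polr2C is the most downstream at 478 bp.

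Transcription machinery genes were packed closely against other genes. A head-to-head neighbour was defined as a coding gene on the opposite strand whose outermost start lies at most 1000 bp upstream of the gene's own. Such a neighbour was present at 53 of the 80 genes (66.2%, median gap 235.0 bp), against 4650 of 13945 coding genes (33.3%, median gap 302.0 bp). It was present at 19 of 31 RNA polymerase, 5 of 9 TfII, 18 of 25 Mediator and 11 of 15 Taf genes.

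The frequency of peaks was read within each arrangement. Among head-to-head genes, 18 of 53 transcription machinery genes (34.0%) had a promoter peak, against 32.3% of coding genes. Top regions of the replicates lay at 26.4, 30.2 and 34.0% of them, against 32.6, 28.6 and 32.1% of head-to-head coding genes. That difference was within the spread of the replicates and had no common direction. Among genes without such a neighbour, 7 of 27 (25.9%) had a peak, against 11.4% of coding genes. There the replicates gave 22.2, 25.9 and 18.5%, against 11.2, 11.9 and 10.7%, higher in 3 of 3 replicates. The arrangement was read at the outermost start only, so this class is not one of isolated promoters.

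The 7 genes with a peak and no head-to-head neighbour were Polr1D, Polr2F, Polr2E, TfIIA-S, MED6, MED4 and Taf7. Among them, Polr1D, MED6 and Taf7 still shared the peak with another coding gene (brat, Naa80 and EMC1). Conversely, TfIIA-L and Taf4 counted as head-to-head, with the neighbour's start at -2423 and -1164 bp from the start that had the peak. Complex by complex, head-to-head RNA polymerase genes had peaks at 8 of 19 and the others at 3 of 12. Head-to-head Mediator genes had them at 6 of 18 and the others at 2 of 7. In the Taf genes the counts were 2 of 11 and 1 of 4.

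**Figure D5:**
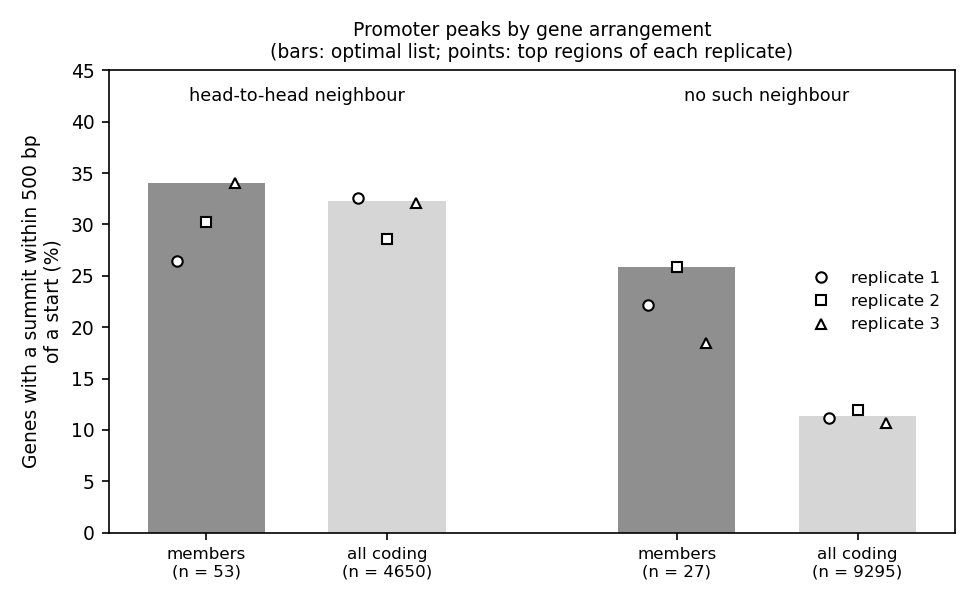
Share of genes (%) whose start has a summit at 500 bp or less, with and without a head-to-head neighbour, transcription machinery genes beside all coding genes; bars are the optimal list and points are the top regions of the 3 replicates. The points overlap among head-to-head genes (26.4 to 34.0% against 28.6 to 32.6%) and are apart among the others (18.5 to 25.9% against 10.7 to 11.9%).

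Peaks shared with a neighbour cannot be assigned to either gene from these lists. Of the 25 peaks, 18 (72.0%) lay within 500 bp of a start of another coding gene, against 57.6% over coding genes with a peak, and 14 were shared with the head-to-head neighbour. The gene's own start was the nearest at 15 of the 25 (60%), against 70.9%. The MED30 summit was 65 bp from the start of Rev1, a translesion DNA polymerase, and 209 bp from that of MED30. At Polr2H the start of CG11247 was 13 bp away and its own 113 bp away. At MED27 the start of elm was 90 bp away, and at Polr2J that of CG15141 was 45 bp away.

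Other shared peaks joined Polr1F with the exonuclease gene Rat1, Polr1D with the translational repressor brat, and Polr3F with the pyruvate kinase gene PyK. Polr2B shared its peak with 140up and PolrMT with CG14339. TfIIA-L shared one with pelle (pll), the kinase of the Toll pathway, and TfIIB with Bug22. MED6 shared with Naa80, MED7 with the condensin gene Cap-H2, MED16 with CG11170 and MED25 with the sulfotransferase gene Hs6st. Taf2 shared with the calpain gene CalpB, and Taf7 with EMC1. The peaks of Polr2F, Polr2C, Polr2E, TfIIA-S, MED4, MED19 and Taf4 were near no other coding start. At MED4 the nearest start was that of the noncoding gene asRNA:CR43470, 62 bp from the summit, and that of MED4 was 175 bp away.

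All 25 promoter peaks were on chromosomes 2 and 3, at 25 of 70 genes, against 18.8% of coding genes there. The 8 genes on X had none, against 16.8% of coding genes on X, and no top region in any replicate. A count of 0 of 8 allows a share of up to 37.5% (3 counts of the total), so a lower share on X was not detectable. Pooled regions lay at 4 of these 8, against 58.2% of coding genes on X. The X-linked genes were Polr2A, Polr3A, Polr3I, TfIIA-S-2, MED18, MED22, Taf8 and Taf9. Both genes on chromosome 4, MED26 and Taf3, were also without an optimal peak, against 5% of coding genes there having one. Counts by arm were 7 of 19 genes on 3L and 10 of 25 on 3R, against 18.9 and 20.4% of coding genes there. On 2L and 2R they were 6 of 16 and 2 of 10, against 17.5 and 17.9%. Gene length also differed: the median was 1744 bp in the genes with a peak and 1330 bp in those without, against 3270 bp in all coding genes with a peak. The part of length in the counts was not tested.

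Short motifs were looked for as exact letters, on either strand, in the 100 bp to each side of a summit. The DNA replication-related element TATCGATA, a common motif of fly housekeeping promoters, was at 3 of the 25 peaks (12%; MED7, MED25 and Taf7), against 11.6% of all coding promoter peaks. CGATA, which that element contains, was at 9 (36.0%), against 45.3%. The E-box CAGCTG was at 3 (12%), against 15.3%, and GGTCACAC, a core of the housekeeping motif 1, at 1 (4.00%), against 5.96%. TATAAA was at 20%, against 26.3%, GAGAG at 20%, against 21.7%, and TCAGT at 28%, against 33.7%. GGCGCC was at none of the 25, against 4.19%, and GTCTNGAC, which begins with the Smad-binding GTCT, at none, against 0.442%. GTCT by itself was not searched for. A count of 0 of 25 allows up to 12%. These shares are near those of other promoter peaks, and no match says only that those letters are not in the window.

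A pair of words was added after the windows at the peaks of the transcription machinery genes had been read, not only those printed here. The words were thus picked from the same peaks in which they were counted. Their counts, and the comparisons with other sets below, are a description only. TTGCCA was at 11 of the 25 summits (44.0%), against 19.9% of all coding promoter peaks. CAGCCCT was at 4 (16%; Polr2F, PolrMT, TfIIA-S and MED25), against 6.13%. At the pooled regions of genes without an optimal peak, TTGCCA was at 14.6% and CAGCCCT at 4.88%, against 17.3% and 2.82% over coding genes without a peak. Both words were in the windows of Polr2F and PolrMT. The DNA of the other CAGCCCT promoters is shown for comparison with Polr2F, in the same way, with CAGCTG in capitals too. PolrMT is at chr2L:1108372-1108492, minus strand. TfIIA-S is at chr3R:23891061-23891181, minus strand, and MED25 at chr3R:20008825-20008945, plus strand.
PolrMT: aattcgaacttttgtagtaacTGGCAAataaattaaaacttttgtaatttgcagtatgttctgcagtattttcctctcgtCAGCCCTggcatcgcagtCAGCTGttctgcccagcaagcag
TfIIA-S: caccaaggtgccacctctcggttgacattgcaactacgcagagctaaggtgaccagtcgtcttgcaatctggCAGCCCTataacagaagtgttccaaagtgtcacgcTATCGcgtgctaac
MED25: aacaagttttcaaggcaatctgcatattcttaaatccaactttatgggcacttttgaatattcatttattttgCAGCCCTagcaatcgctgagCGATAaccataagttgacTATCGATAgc

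Whole promoters, from 250 bp before to 50 bp after the outermost start, were searched in the same way. GGTCACAC was at 3 of the 25 promoters with a peak (12%) and 18 of the 55 without (32.7%), against 7.70% of all coding promoters and 11.2% of those with a peak. TATCGATA was at 2 of the 25 with a peak (8%) and 10 of the 55 without (18.2%), against 9.36% of all coding promoters and 16.3% of those with a peak. Over all coding genes both motifs were thus more frequent at promoters with a peak than at all promoters, while in the transcription machinery genes the counts ran the other way, on 2 and 3 promoters with a peak. That difference was not tested. TTGCCA, the word picked from these sequences, was at 44.0% with a peak and 23.6% without, against 25.4% of all coding promoters and 28.6% of those with a peak.

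The partners of this machinery that carry other names were taken from a list of 44 symbols, of which 43 matched the annotation. A promoter peak was at 16 of the 43 (37.2%), beside the 18.4% over all coding genes. TFIIH, the general factor that opens the promoter and phosphorylates the polymerase, had peaks at 6 of 10 genes (Ssl1, Tfb5, mrn, Tfb1, Xpd and Cdk7). The peak counted for Ssl1 had a signal of 1284, with its summit 195 bp upstream of the Ssl1 start and nearer to the start of another gene, Chro. The peaks of these other genes were counted by distance in the same way, and some may likewise lie nearer to a neighbour. Genes of elongation and pausing had them at 8 of 16, led by Nelf-E (499.2), a subunit of the pausing factor NELF, and Nelf-A (167.9).

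TFIIIB, a factor of polymerase III, and SNAPc had peaks at 2 of 5 genes. Both were TFIIIB genes, Bdp1 (512.4) and Brf (369.3), and both were higher in signal than any of the 25 peaks described above. The SNAPc genes Pbp45, Pbp49 and Pbp95 had no optimal peak and pooled signals of 41.0, 52.5 and 51.2. The TATA-binding protein gene Tbp and its relatives Trf and Trf2 had none, with pooled signals of 64.3, 42.5 and 79.1. The 4 genes of the Mediator kinase module (Cdk8, CycC, kto and skd) had no optimal peak and pooled signals of 41.4 to 67.8. The testis-specific TAF genes can, sa, mia and nht had no pooled region, and neither had the polymerase I factor gene Tif-IA. The symbol rye, also listed as a testis-specific TAF, did not match the annotation and was not counted under that name.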

How the data were processed

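Chromatin of 3 biological replicates of 1 group (Dad-GFP embryos) was profiled. The authors made the region lists from each replicate's alignment and from the pooled one, with a control alignment, and the optimal list by IDR, as the file listings state. The deposited signal column is the caller's value for a region, not scaled between libraries. The deposited summit column is an offset from the region's start. The aligner, caller and IDR cut-off (not given in the sources used here) set which regions were listed. Neither the control library nor the lists on the older build were used.

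Lists on build dm6 were joined to Ensembl release 115 (BDGP6.54), and windows were read from the release 6 genome, with Python 3.11.15, numpy 2.4.6, pandas 2.3.3, scipy 1.17.1 and matplotlib 3.10.9. Assignment of summits to starts was tested on simulated data. For 3 optimal peaks with a summit offset beyond the region, its last base was used. The genes and lists were chosen with earlier results of these data known. Named genes are the 5 strongest of each complex with replicate values, every other gene with a peak, genes without one by symbol, genes with a summit 250 to 1000 bp from a start, and genes that share a peak. Replicate numbers come from the labels. Alternatives were other windows, the stronger 1696 peaks, the nearest start only, overlap in place of summits, other numbers of top regions, and leaving out each replicate. The values of 1 gene are not reported here singly, and the counts include it.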

Additional observations from a re-analysis of the deposited data

How the results depend on the processing

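Of 55 alternative values of 8 results, 38 stayed within the limits set for a stable value, 17 moved and 0 were labelled reversed. These labels did not follow the comparison with coding genes. The TfII and Taf shares went from above to below coding genes in settings given below. The limits were wide, since 17 genes with a peak without replicate 1, in place of 25, still counted as stable. Windows of 250 and 1000 bp gave 23 and 26 transcription machinery genes with a promoter peak. With the stronger 1696 peaks alone, the count was 14 of 80 (17.5%, against 9.92% of coding genes), with 6 RNA polymerase, 5 Mediator and 1 Taf gene. Counting a peak only for its nearest start gave 15 of 80 (18.8%, against 13.4%), with 4 Mediator genes and 1 TfII gene (11.1%, below coding genes), a median signal of 106.6 and a median distance of -59.0 bp. Without 1 replicate, top regions shared by the others replaced the optimal list (2301, 2391 and 2285 regions). The counts were then 16 to 19 genes in all (against 12.4 to 13.6% of coding genes), with 6 to 7 RNA polymerase, 5 to 7 Mediator and 1 to 2 Taf genes, while TfII stayed at 3; the mean share at top regions was 26.9 to 28.8%. The lowest were 16 in all, 6 RNA polymerase and 5 Mediator genes without replicate 3, and 1 Taf gene without replicate 1. Halving the number of top regions gave a mean share of 15.4%, against 9.90%, and taking all regions gave 78.8%, against 54.1%. The Taf share was below coding genes with the stronger peaks (6.67%), with a window of 1000 bp (20%, against 21.0%), with the nearest start only (13.3%) and without replicates 1 and 2. The cause of these moves was not tested. No paired analysis was possible because the replicates form 1 group. What read depth limits is unknown, since the lists hold no read counts.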
